A study of Mus musculus with 48 samples.

Results

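The results concern 10 genes of triglyceride-rich lipoprotein assembly and exchange in mouse liver, chosen by symbol: the apolipoprotein genes Apoa1, Apoa4, Apoa5, Apob, Apoc1, Apoc3 and Apoe, and the genes Mttp, Tm6sf2 and Pltp. All 10 were found among the 14251 genes of the count table, and all 10 passed the filter on low counts. The livers came from 48 male C57BL6J mice treated for 2 weeks, with no genetic change named in the labels. The first group, Cort_ATGLi (n = 14), drank corticosterone, the main glucocorticoid of rodents, at 100 ug/ml and ate Teklad chow into which atglistatin, an inhibitor of adipose triglyceride lipase (ATGL), had been milled at 571 mg/kg. Cort_CON (n = 14) drank the same corticosterone without atglistatin in the food. EtOH_ATGLi (n = 10) drank vehicle, 1% ethanol in water, and ate the atglistatin diet. EtOH_CON (n = 10) drank vehicle and ate no atglistatin. The labels give no ethanol content for the water of the corticosterone groups. The labels also call 9 of the 14 Cort_CON mice and 1 of the 14 Cort_ATGLi mice diabetic and none of the vehicle mice, and they give insulin and fed glucose without units. The drug was fed, so it was not limited to one tissue, and whole-liver RNA mixes all cell types of the organ.

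Very-low-density lipoprotein (VLDL) is the particle in which the liver exports triglyceride. It is built on apolipoprotein B, the product of Apob, which takes up lipid in the endoplasmic reticulum with the help of the microsomal triglyceride transfer protein, the product of Mttp, while Tm6sf2 encodes a membrane protein needed for full loading of the particle. In plasma the smaller apolipoproteins exchange between particles and regulate lipoprotein lipase and uptake: apolipoprotein A-V favours triglyceride hydrolysis, apolipoproteins C-I and C-III slow clearance, apolipoprotein E is a ligand for the uptake of remnants, and apolipoprotein A-I is the main protein of high-density lipoprotein (HDL). The product of Pltp carries phospholipid between particles and helps remodel HDL. Apolipoprotein A-IV is made in intestine and, in rodents, also in liver.

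RNA was read from transcript 3′ ends (Lexogen QuantSeq), so a count measures tags per gene and does not grow with transcript length. Library totals ran over 7449109 to 21175603 counted reads with a median of 14415826, and levels are given as CPM, in which each count is set against the TMM-scaled total of its library. The least-covered of the 10 genes was Pltp, with 32 to 698 reads per library, so its values carry the largest counting error. All 7 hepatocyte markers listed were counted, and their summed level was 92621 to 137742 CPM in Cort_ATGLi, 104011 to 150393 in Cort_CON, 83827 to 106278 in EtOH_ATGLi and 79262 to 124134 in EtOH_CON livers. Of 10 Kupffer cell and macrophage markers, 9 were lower in Cort_CON than in EtOH_CON livers and 9 were lower in Cort_ATGLi than in EtOH_ATGLi livers; their summed level was 76.3 to 408 CPM in Cort_ATGLi and 95 to 206 CPM in Cort_CON, against 193 to 366 CPM in EtOH_ATGLi and 244 to 467 CPM in EtOH_CON livers. In bulk tissue fewer cells of a type and less RNA per cell cannot be told apart. Pancreatic acinar RNA was high in 6 libraries, with Cpa1 above 20 CPM: Cort_CON replicate 30, EtOH_ATGLi replicates 6 and 11, and EtOH_CON replicates 9, 10 and 15. Cort_ATGLi replicate 41 stood apart in several of the 10 genes and in the macrophage markers, and results that rest on it are given with and without it; leaving it out moved the log2 fold changes of the 9 genes other than Apoa4 by at most 0.07. No 2 libraries of a group agreed within sampling noise, and nothing in the labels says whether mice shared a cage or a litter.

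Corticosterone changed 7 of the 10 genes on each diet, and they were the same 7 in the same directions. Apoa4, Apoc3, Mttp and Tm6sf2 rose, Pltp, Apob and Apoe fell, and Apoa1, Apoa5 and Apoc1 did not pass the test, which was edgeR's quasi-likelihood test with Benjamini-Hochberg adjusted p at most 0.05 over all genes. In Cort_CON against EtOH_CON livers, 4 genes were higher and 3 were lower, where 22.5% of all 12688 tested genes were higher and 21.7% lower. In Cort_ATGLi against EtOH_ATGLi livers the counts were again 4 higher and 3 lower, where 19% of all genes were higher and 17.7% lower. The median absolute log2 fold change of the 10 genes was 0.7 on the control diet and 0.52 on the atglistatin diet, beside 0.24 and 0.21 over all tested genes, while the median signed log2 fold change was 0.08 and 0.01, beside 0.01 and 0.02. Groups that did not overlap in CPM were seen for 2 genes, Apoa4 and Pltp, in Cort_CON against EtOH_CON livers, as for 6.11% of all genes, and for 4 genes, Apoa4, Apoc3, Mttp and Pltp, in Cort_ATGLi against EtOH_ATGLi livers, as for 3.14% of all genes.

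**Figure D1:**
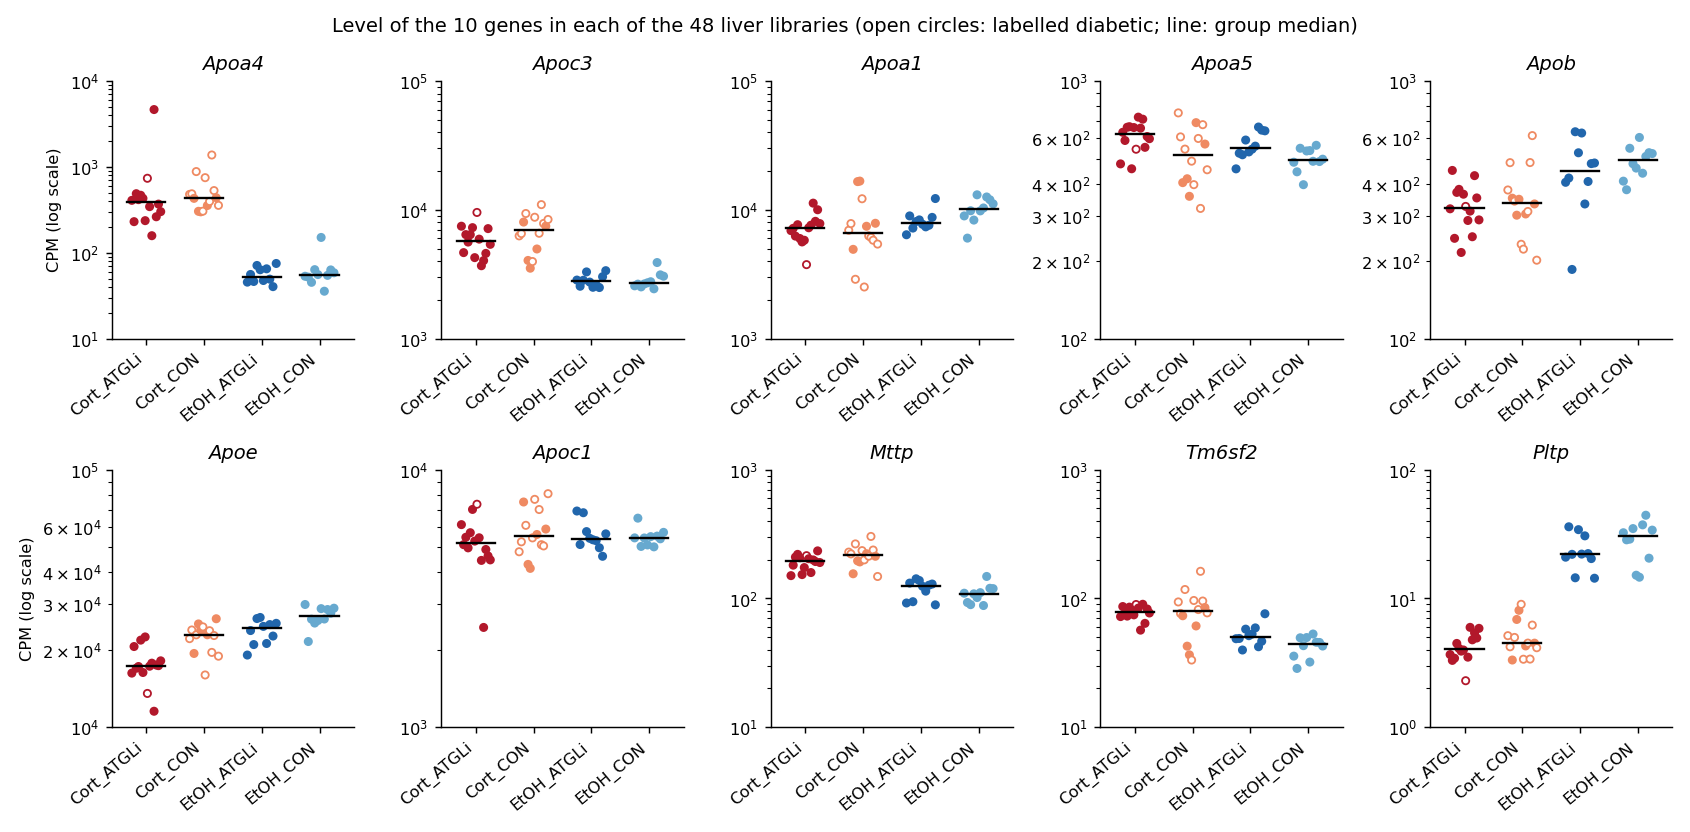
Level of each of the 10 genes in CPM (log axis) in every library, with Cort_ATGLi, Cort_CON, EtOH_ATGLi and EtOH_CON from left to right; points are mice, open circles are mice labelled diabetic and bars are group medians. Apoa4 lay between 157.8 and 4653 CPM in Cort_ATGLi and between 40.25 and 74.91 CPM in EtOH_ATGLi livers, and Pltp between 2.298 and 5.967 CPM in Cort_ATGLi and between 14.37 and 36.05 CPM in EtOH_ATGLi livers.

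The 300 bases around the RefSeq start (250 before, 50 from it on; build GRCm38.p6) are printed for the gene that rose most, the gene that fell most and the gene of the lipid-transfer step, so that the results below can be read beside their promoters. RefSeq held such a window for 7 of the 10 genes, all but Apoc1, Apoc3 and Tm6sf2. Capitals mark matches, searched on both strands, to a TATA box (TATAAA) or, with up to 1 mismatch, a cyclic AMP response element (TGACGTCA). The Apoa4 window is chr9:46240594-46240893 on the plus strand, the Mttp window is chr3:138143369-138143668 on the minus strand, inside the span of the gene in GENCODE, and the Pltp window is chr2:164857659-164857958 on the minus strand. GENCODE starts Apoa4 at 46240696, ahead of the RefSeq start, so more of the Apoa4 window than its last 50 bases lies inside the gene.
Apoa4: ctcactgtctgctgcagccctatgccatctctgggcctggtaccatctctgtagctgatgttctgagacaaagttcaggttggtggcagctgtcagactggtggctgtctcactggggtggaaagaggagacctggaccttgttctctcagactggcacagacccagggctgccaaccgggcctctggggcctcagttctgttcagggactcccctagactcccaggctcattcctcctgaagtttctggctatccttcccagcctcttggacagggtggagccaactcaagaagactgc
Mttp: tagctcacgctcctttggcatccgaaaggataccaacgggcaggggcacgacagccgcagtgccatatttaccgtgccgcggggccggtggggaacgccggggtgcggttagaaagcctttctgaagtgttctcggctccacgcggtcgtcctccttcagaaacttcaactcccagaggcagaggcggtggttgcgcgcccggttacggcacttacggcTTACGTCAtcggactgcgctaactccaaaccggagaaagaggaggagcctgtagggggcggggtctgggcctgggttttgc
Pltp: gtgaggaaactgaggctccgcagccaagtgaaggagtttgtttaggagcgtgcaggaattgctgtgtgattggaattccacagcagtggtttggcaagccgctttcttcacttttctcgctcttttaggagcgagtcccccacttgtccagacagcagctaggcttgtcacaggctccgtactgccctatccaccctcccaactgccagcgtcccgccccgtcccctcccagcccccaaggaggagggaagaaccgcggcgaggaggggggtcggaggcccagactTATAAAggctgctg
Mttp held a response-element match with 1 mismatch at positions -31 to -24 from the start, a motif found in 12.3% of 32544 promoter windows. Pltp held TATAAA at 37 to 42, Apob at -60 to -55 and Apoa5 at -31 to -26, and 13.6% of windows held it. The forkhead motif TGTTTAC, found in 3.66% of windows, was in none of the 7. A glucocorticoid response element (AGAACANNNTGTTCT), a DR1 element bound by HNF4A and PPARA (AGGTCANAGGTCA) and a DR4 element bound by liver X receptors (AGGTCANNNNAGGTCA), each searched with up to 2 mismatches, were found in 1.83%, 3.87% and 3.03% of windows and in none of the 7. The hexamer AGGTCA by itself, found in 16.2% of windows, was in none of the 7 either; where RefSeq listed several windows for a gene, as for Apoa5 and Apoe, the first was read. A match or its lack describes these letters in this window and nothing about where a factor binds.

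Apoa4 showed the largest rise of the 10 genes. Its level was 157.8 CPM at the lowest, 387.8 at the median and 4653 at the highest in Cort_ATGLi livers, and 299.3, 433.4 and 1375 CPM in Cort_CON livers. In EtOH_ATGLi livers the lowest, median and highest values were 40.25, 52.47 and 74.91 CPM, and in EtOH_CON livers 35.59, 55.02 and 150.6 CPM. Every corticosterone-treated liver therefore exceeded every vehicle liver on its own diet, and the highest vehicle liver, EtOH_CON replicate 10, stood well above the next at 63.47 CPM. The log2 fold change was 3.06 ± 0.42 (SE) in Cort_CON against EtOH_CON livers, 8.34-fold, with adjusted p = 3.61e-08. In Cort_ATGLi against EtOH_ATGLi livers it was 3.6 ± 0.43, 12.1-fold, with adjusted p = 2.72e-09. The second value leans on replicate 41, whose 4653 CPM compares with at most 736.5 CPM in the other 13 livers of its group, and without it the log2 fold change was 2.73 with adjusted p = 1.97e-12. Of 7 enterocyte markers, Vil1, Cdh17, Sis, Alpi and Krt20 were not in the count table, and Fabp2 and Lgals4 passed the test on neither diet. The summed level of Fabp2 and Lgals4 was 43.8 to 116 CPM in Cort_ATGLi, 23.5 to 89 in Cort_CON, 38.8 to 111 in EtOH_ATGLi and 37 to 125 in EtOH_CON livers, with replicate 41 at 116.

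Apoc3, whose protein inhibits lipoprotein lipase and slows uptake of remnants, rose on both diets. Its level was 3677, 5765 and 9535 CPM (lowest, median, highest) in Cort_ATGLi livers and 3518, 7021 and 10967 CPM in Cort_CON livers, against 2490, 2790 and 3366 CPM in EtOH_ATGLi livers and 2434, 2682 and 3893 CPM in EtOH_CON livers. All 14 Cort_ATGLi livers exceeded all 10 EtOH_ATGLi livers, and 13 of 14 Cort_CON livers exceeded every EtOH_CON liver. The log2 fold change was 1.28 ± 0.15 in Cort_CON against EtOH_CON livers, 2.44-fold, with adjusted p = 1.73e-09, and 1.06 ± 0.15 in Cort_ATGLi against EtOH_ATGLi livers, 2.08-fold, with adjusted p = 2.5e-07.

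Apoa1, Apoc3, Apoa4 and Apoa5 lie within 43340 bp of chromosome 9, at 46228580 to 46271919 (GRCm38), with Apoc3 on the minus strand and the other 3 on the plus strand, and they did not move as a block. Apoa1, encoding the main HDL protein, averaged 7228 ± 1857 CPM (SD, n = 14) in Cort_ATGLi, 7815 ± 4396 (n = 14) in Cort_CON, 8265 ± 1585 (n = 10) in EtOH_ATGLi and 10200 ± 2126 CPM (n = 10) in EtOH_CON livers. Its log2 fold change was -0.38 ± 0.20 in Cort_CON against EtOH_CON livers (adjusted p = 0.125) and -0.19 ± 0.21 in Cort_ATGLi against EtOH_ATGLi livers (adjusted p = 0.489). The Cort_CON spread was wide, because replicates 32 and 33, both labelled nondiabetic, held 16553 and 16704 CPM; without replicate 32 the difference was -0.51 with adjusted p = 0.0285 and without replicate 33 it was -0.52 with adjusted p = 0.027. Without the mice labelled diabetic it was 0.05 with adjusted p = 0.893, so the estimate lost its negative sign. Apoa5, whose protein promotes triglyceride hydrolysis, averaged 609.4 ± 80.25 CPM in Cort_ATGLi, 519.3 ± 134.6 in Cort_CON, 566.9 ± 66.45 in EtOH_ATGLi and 497.9 ± 51 CPM in EtOH_CON livers. Its log2 fold changes were 0.06 (95% interval -0.15 to 0.27) in Cort_CON against EtOH_CON and 0.10 (-0.10 to 0.31) in Cort_ATGLi against EtOH_ATGLi livers. Of the counted genes bordering the cluster, the kinase gene Sik3 was higher in Cort_CON than in EtOH_CON livers (log2 fold change 0.48 ± 0.077, adjusted p = 8.73e-07), Zpr1 was lower (-0.26 ± 0.091, adjusted p = 0.0178) and Bud13 was at 0.05 ± 0.14 (adjusted p = 0.785). In Cort_ATGLi against EtOH_ATGLi livers Sik3 was again higher (0.31 ± 0.076, adjusted p = 0.00115), while Zpr1 was at 0.02 ± 0.091 (adjusted p = 0.885) and Bud13 at 0.11 ± 0.14 (adjusted p = 0.55).

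Apob, the scaffold of VLDL, fell modestly on both diets. Its level was 215.9, 322.4 and 449.6 CPM (lowest, median, highest) in Cort_ATGLi livers and 201.5, 337.5 and 613.9 CPM in Cort_CON livers, against 185.5, 448.9 and 635.4 CPM in EtOH_ATGLi livers and 378.3, 493.4 and 603.8 CPM in EtOH_CON livers. The groups overlapped on both diets, although 11 of 14 Cort_CON livers lay under the lowest EtOH_CON liver. Of the 14 Cort_ATGLi livers, 0 lay under the lowest EtOH_ATGLi liver and 14 under the EtOH_ATGLi mean. On the log2 scale the difference was -0.48 ± 0.15 in Cort_CON against EtOH_CON livers (adjusted p = 0.00803) and -0.46 ± 0.15 in Cort_ATGLi against EtOH_ATGLi livers (adjusted p = 0.0134). Without the 6 libraries high in Cpa1 the first was -0.42 with adjusted p = 0.0546.

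Mttp, encoding the lipid-loading protein of VLDL, rose. Its level was 150.5, 196.5 and 234.3 CPM in Cort_ATGLi livers and 148.2, 217.5 and 303.3 CPM in Cort_CON livers, against 89.28, 125.6 and 142.2 CPM in EtOH_ATGLi livers and 88.16, 109.3 and 148.3 CPM in EtOH_CON livers. All Cort_ATGLi livers lay above all EtOH_ATGLi livers, and 13 of 14 Cort_CON livers lay above every EtOH_CON liver. The log2 fold change was 0.99 ± 0.099 in Cort_CON against EtOH_CON livers, 1.99-fold, with adjusted p = 1.31e-11, and 0.70 ± 0.098 in Cort_ATGLi against EtOH_ATGLi livers, 1.63-fold, with adjusted p = 1.28e-07. Mttp overlaps Trmt10a on the other strand, and whether counting used strand is not given in the sources used here. Trmt10a was counted apart, at means of 9.903 CPM in Cort_ATGLi, 9.925 in Cort_CON, 8.304 in EtOH_ATGLi and 8.235 CPM in EtOH_CON livers. It was also higher, at 0.26 ± 0.084 (adjusted p = 0.00924) on the control diet and 0.26 ± 0.082 (adjusted p = 0.0124) on the atglistatin diet.

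Tm6sf2 rose as well. Its level was 56.78, 78.92 and 90.17 CPM (lowest, median, highest) in Cort_ATGLi livers and 33.27, 79.68 and 162.6 CPM in Cort_CON livers, against 39.8, 50.17 and 76.09 CPM in EtOH_ATGLi livers and 28.62, 44.27 and 52.98 CPM in EtOH_CON livers. Cort_CON livers had the widest spread and overlapped the vehicle livers at the low end. Its log2 fold change was 0.93 ± 0.16 in Cort_CON against EtOH_CON livers (adjusted p = 4.47e-06) and 0.58 ± 0.16 in Cort_ATGLi against EtOH_ATGLi livers (adjusted p = 0.00319). Without the mice labelled diabetic the first was 0.47 with adjusted p = 0.0168. The rise of Mttp and Tm6sf2 and the fall of Apob are thus opposite movements among the 3 genes of particle assembly.

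Pltp showed the largest fall. Its level was 2.298, 4.037 and 5.967 CPM (lowest, median, highest) in Cort_ATGLi livers and 3.327, 4.501 and 9.009 CPM in Cort_CON livers, against 14.37, 22.07 and 36.05 CPM in EtOH_ATGLi livers and 14.63, 30.66 and 44.32 CPM in EtOH_CON livers. On neither diet did a corticosterone-treated liver reach the lowest vehicle liver. The log2 fold change was -2.50 ± 0.18 in Cort_CON against EtOH_CON livers, 5.64-fold lower, with adjusted p = 2.52e-16, and -2.48 ± 0.18 in Cort_ATGLi against EtOH_ATGLi livers, 5.57-fold lower, with adjusted p = 1.32e-15. Macrophages also express Pltp, and the macrophage markers given above moved with it; their median log2 fold change was -1.36 in Cort_CON against EtOH_CON livers and -1.18 in Cort_ATGLi against EtOH_ATGLi livers, and their part in the fall of Pltp was not tested. Replicate 41 had a macrophage marker sum of 408 CPM, beside a Cort_ATGLi median of 107 CPM, and a Pltp level of 4.775 CPM, and 1 library does not test that part. Pltp overlaps Ctsa on the other strand. Ctsa averaged 48.21 CPM in Cort_ATGLi and 51.16 CPM in Cort_CON against 63.65 CPM in EtOH_ATGLi and 62.65 CPM in EtOH_CON livers. It was also lower, though by far less than Pltp, at -0.29 ± 0.099 (adjusted p = 0.014) on the control diet and -0.4 ± 0.098 (adjusted p = 0.00105) on the atglistatin diet.

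Apoe and Apoc1 are neighbours on chromosome 7, at 19689481 to 19699188. Apoe fell, and its level was 11537, 17300 and 22423 CPM (lowest, median, highest) in Cort_ATGLi livers and 15957, 22854 and 26382 CPM in Cort_CON livers, against 19070, 24192 and 26689 CPM in EtOH_ATGLi livers and 21522, 27024 and 29967 CPM in EtOH_CON livers. All 14 livers of each corticosterone group lay under the mean of their vehicle group, and the groups overlapped. On the log2 scale the difference was -0.28 ± 0.099 in Cort_CON against EtOH_CON livers (adjusted p = 0.0204) and -0.43 ± 0.099 in Cort_ATGLi against EtOH_ATGLi livers (adjusted p = 0.000474). Macrophages express Apoe too, so the lower macrophage markers stand beside this fall as well, and their part in it was not tested. Without the mice labelled diabetic the first difference was -0.22 with adjusted p = 0.2. Apoc1, whose protein also slows remnant uptake, averaged 5238 ± 1186 CPM in Cort_ATGLi, 5850 ± 1258 in Cort_CON, 5588 ± 744.3 in EtOH_ATGLi and 5464 ± 425.3 CPM in EtOH_CON livers. Its log2 fold changes were 0.10 (95% interval -0.14 to 0.33) in Cort_CON against EtOH_CON and -0.09 (-0.33 to 0.14) in Cort_ATGLi against EtOH_ATGLi livers. The next genes of this cluster are Apoc4, at 0.13 ± 0.14 (adjusted p = 0.474), and Apoc2, the activator of lipoprotein lipase, which was higher in Cort_CON than in EtOH_CON livers at 0.74 ± 0.22 (adjusted p = 0.00617). In Cort_ATGLi against EtOH_ATGLi livers neither passed, with Apoc4 at 0.18 ± 0.14 (adjusted p = 0.31) and Apoc2 at 0.32 ± 0.22 (adjusted p = 0.257).

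**Figure D2:**
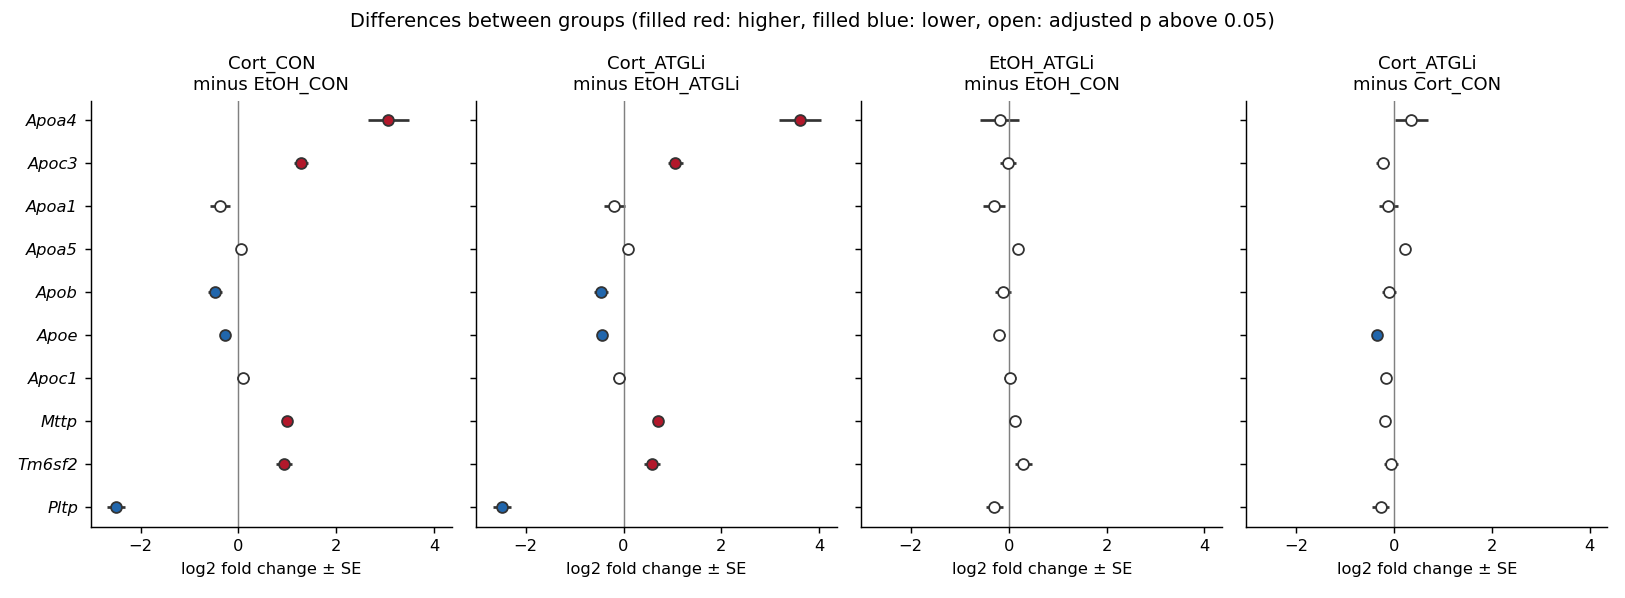
Log2 fold change with its standard error for the 10 genes in 4 comparisons; filled points passed an adjusted p of 0.05, red for higher and blue for lower. The left 2 panels carry 4 higher and 3 lower genes each, the vehicle atglistatin panel carries none and the corticosterone atglistatin panel carries only Apoe, at -0.35.

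With atglistatin alone none of the 10 genes passed the test. In EtOH_ATGLi against EtOH_CON livers 3.13% of all genes passed the test, and among the 10 the lowest adjusted p was 0.376, with 0 under an unadjusted p of 0.05 in edgeR's test, beside 16.1% of all genes. The largest estimates were 0.30 ± 0.17 for Tm6sf2 (95% interval -0.04 to 0.64), -0.30 ± 0.22 for Apoa1 (-0.75 to 0.14) and -0.29 ± 0.18 for Pltp (-0.66 to 0.07). Without the 6 libraries high in Cpa1, 2 of them EtOH_ATGLi and 3 EtOH_CON, the Pltp difference was -0.69 with adjusted p = 0.0324. Macrophages also express Pltp. In this comparison 9 of the 10 macrophage markers had estimates below 0, from -0.34 to -0.23 with all libraries and from -0.29 to -0.18 without those 6, and none passed in either fit. With all libraries 2 of them, Vsig4 and Clec4f, had an unadjusted p under 0.05 (0.033 and 0.0438), and the part of these cells in the Pltp difference was not tested.

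Under corticosterone, Apoe was lower with atglistatin, and no other member passed the test. Mean Apoe was 17460 ± 2874 CPM in Cort_ATGLi livers and 22266 ± 2856 CPM in Cort_CON livers (SD, n = 14 each), a log2 fold change of -0.35 ± 0.091 with adjusted p = 0.00674, where 11.7% of all genes passed. Of the Cort_ATGLi livers, 13 of 14 lay under the Cort_CON mean. Without replicate 41, the lowest of its group at 11537 CPM, the difference was -0.31 with adjusted p = 0.0112. Apoa5 came next at 0.23 ± 0.095 (adjusted p = 0.109), and passed only without Cort_CON replicate 27, at 0.28 with adjusted p = 0.0389. Apoa4 was 0.36 ± 0.34 with all libraries and -0.50 without replicate 41, with adjusted p = 0.556 and 0.109, so its sign turned with that library. Some markers of several cell types were lower in the same comparison. Of 7 hepatocyte markers 2 were lower, Fgb at -0.35 ± 0.11 (adjusted p = 0.0319) and Trf at -0.31 ± 0.11 (adjusted p = 0.05), with a median of -0.21 over the 7, beside 0 over all genes. Of the markers tested, 1 of 5 endothelial, 1 of 5 stellate, 1 of 2 lymphocyte, 1 of 2 adipocyte and 3 of 6 pancreatic acinar genes were lower, none of any of these lists was higher, and 0 of 10 macrophage markers passed (median -0.13). The summed acinar level had medians of 17.1 CPM in Cort_ATGLi and 16.9 CPM in Cort_CON livers, and Cort_CON replicate 30 held 2682 CPM. The lower adipocyte marker, Adipoq, averaged only 0.3533 CPM against 1.053 CPM, and the other, Cidec, was at 0.91 ± 0.58 (adjusted p = 0.352). The part of these cell types in the fall of Apoe was not tested. The 2 groups also differed in diabetes, with 1 and 9 mice so labelled, and in median insulin, 13.8 and 37.8. In 8 alternative fits, 1 of them without the mice labelled diabetic, Apoe ran from -0.40 to -0.32 and passed in each. Members that did not pass moved more, with Tm6sf2 from -0.06 to 0.38 and Apoa1 from -0.51 to 0.06. A missed threshold here does not show that atglistatin had no effect.

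Whether the corticosterone effect differed between the diets was tested as the difference of both differences. No member passed, where 1.43% of all genes did. Mttp had the lowest adjusted p, 0.381, with a smaller rise on the atglistatin diet (difference -0.29 ± 0.14, 95% interval -0.57 to -0.02, unadjusted p = 0.0382 in edgeR's test). The 95% interval of the difference was -0.50 to 0.53 for Pltp, -0.41 to 0.45 for Apob and -0.65 to 0.20 for Apoc3, so a missed threshold does not show equal effects on both diets.

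With both agents against neither, Cort_ATGLi against EtOH_CON livers, 9 of the 10 genes passed, 5 higher and 4 lower, where 22.2% of all genes were higher and 21.4% lower. Apoa5 joined the genes that rose, at 0.29 ± 0.10 (adjusted p = 0.0206), and Apoa1 joined those that fell, at -0.50 ± 0.20 (adjusted p = 0.0443). Leaving out EtOH_CON replicate 1 gave adjusted p = 0.0506 and replicate 2 gave 0.0584 for Apoa5, while Apoa1 missed the threshold in 12 of 24 such fits, with adjusted p from 0.0509 to 0.0749. In order of mean level, Apoe and Apob ran Cort_ATGLi, Cort_CON, EtOH_ATGLi, EtOH_CON from low to high, and so did Pltp. Mttp and Tm6sf2 ran EtOH_CON, EtOH_ATGLi, Cort_ATGLi, Cort_CON from low to high, with neither the lower nor the upper neighbours differing by the test. For Apoc3 and Apoa4 likewise the vehicle groups did not differ from each other by the test, nor did the corticosterone groups. Cort_CON was not tested against EtOH_ATGLi, the middle neighbours of Apoe, Apob and Pltp.

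Within Cort_CON the labels split the mice by diabetes. There, every diabetic mouse had a higher fed glucose than every nondiabetic one. Across both corticosterone groups the label did not follow fed glucose. Cort_CON replicate 36, labelled nondiabetic, lay above the 212 of Cort_ATGLi replicate 26, labelled diabetic, and far above the other nondiabetic Cort_CON mice. Fits without the mice labelled diabetic therefore keep that Cort_CON mouse. Of the 10 genes none passed in 9 diabetic against 5 nondiabetic livers, and neither did any of 12003 tested genes (0%). By edgeR's test without adjustment 3 of the 10 had p under 0.05, beside 3.73% of all genes: Apoa4 averaged 617.1 ± 339.2 CPM in diabetic and 364.9 ± 66.32 CPM in nondiabetic livers (log2 fold change 0.75 ± 0.30, adjusted p = 0.992), Tm6sf2 averaged 92.8 ± 34.76 and 59.74 ± 20.36 CPM (0.63 ± 0.27, adjusted p = 0.992), and Apoa1 averaged 6213 ± 2835 and 10698 ± 5529 CPM (-0.79 ± 0.34, adjusted p = 0.992), in each case with the diabetic livers first. A slope of log2 level on fed glucose over the 14 Cort_CON livers, an analysis added after seeing the data, passed for 2 of 12409 genes (0.0161%) and for none of the 10. The slope per glucose unit was -0.00717 ± 0.0019 for Apoa1 (adjusted p = 0.301) and 0.00538 ± 0.0016 for Apoa4 (adjusted p = 0.345).

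Insulin, by its labelled value, varied widely in Cort_ATGLi mice, over 2.19 to 38 with a median of 13.8, and the levels of 4 members were correlated with it before adjustment. Over these 14 livers 10 relations were computed, 1 per gene, and 4 had a permutation p of at most 0.05 (100000 resamples, two-sided, not adjusted). The same 4 had an unadjusted p under 0.05 in edgeR's slope on insulin, beside 19.1% of all genes. The top value, 38 in replicate 26, lies where 9 of the 14 Cort_CON mice cluster, at 36.7 to 39.8, and the labels do not say whether the assay had an upper limit there. Replicate 26 is also the only Cort_ATGLi mouse labelled diabetic and had the highest fed glucose of its group, 212. Apoc3 had Pearson's r = 0.79 (permutation p = 0.00097) and Spearman's rho = 0.83 (permutation p = 0.00038). Its level was 4031, 5391 and 3677 CPM in the 3 mice of lowest insulin, replicates 41, 48 and 40, and 7267, 6414 and 9535 CPM in the 3 of highest, replicates 24, 17 and 26. Apoc1 had r = 0.70 (permutation p = 0.00095) and rho = 0.83 (permutation p = 0.00046), Apoa1 had r = -0.68 (permutation p = 0.00425) and rho = -0.66 (permutation p = 0.012), and Pltp had r = -0.61 (permutation p = 0.0205) and rho = -0.65 (permutation p = 0.0146). Leaving out the 2 mice farthest from the median insulin, replicates 26 and 17, gave r = 0.71 for Apoc3 and 0.65 for Apoc1 (permutation p = 0.0107 and 0.0104), but -0.51 for Apoa1 and -0.34 for Pltp (permutation p = 0.0882 and 0.28), and the last 2 did not pass over the 12 mice left. Adjusted over all 12287 genes with an edgeR slope, an analysis added after seeing the data, none of the 10 passed and neither did any other gene (0%), the lowest of the 10 being Apoc3 at adjusted p = 0.0577.

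Apoa4 gave r = 0.05 and rho = 0.52 over all 14 livers (permutation p = 0.886 and 0.06). Replicate 41 combined the lowest insulin of the group, 2.19, with the highest Apoa4 level, and without it r was 0.86 (permutation p = 4e-05) and rho 0.90 (permutation p = 0.0001), with levels of 157.8 CPM in replicate 40 at an insulin of 7.72 and 736.5 CPM in replicate 26 at 38. The same mouse had the highest Apoa1, 11262 CPM, and the lowest Apoc1, 2441 CPM, of its group. An index of transcript length, the mean log2 level of 500 genes with long transcripts (at least 8000 bases) minus that of 422 genes with short ones (at most 1000 bases), also ran with insulin in these livers, with r = -0.65 (permutation p = 0.0133) and rho = -0.57 (permutation p = 0.035), and its part in these relations was not tested.

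**Figure D3:**
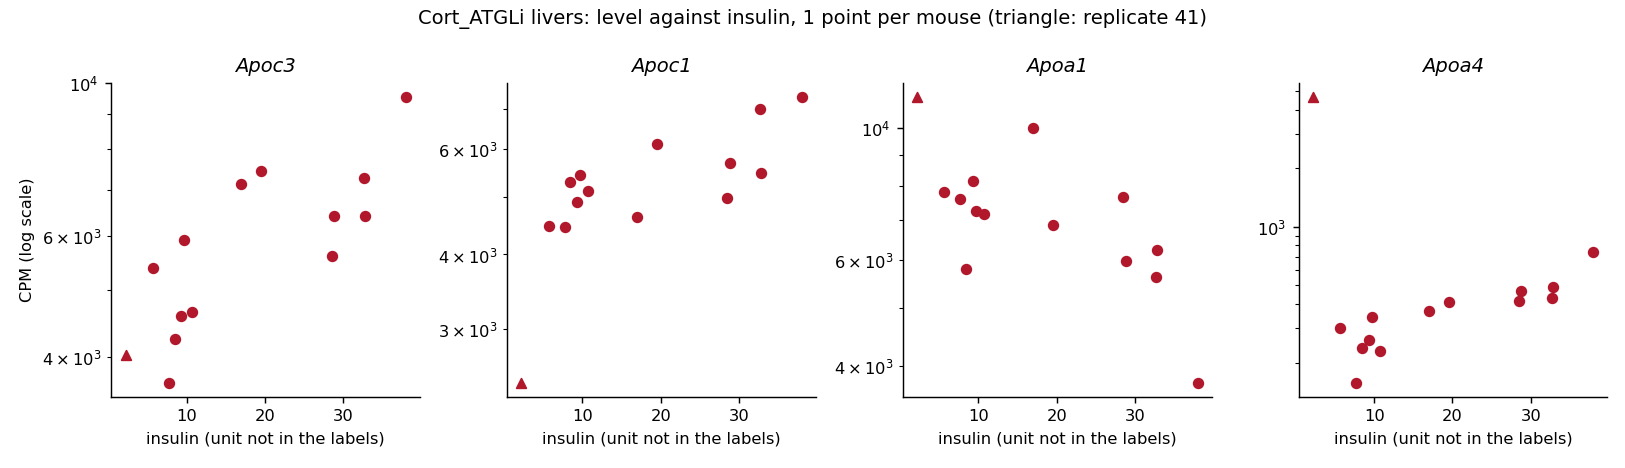
CPM (log axis) of Apoc3, Apoc1, Apoa1 and Apoa4 against labelled insulin in the 14 Cort_ATGLi livers, 1 point per mouse, with replicate 41 as a triangle. Points of Apoc3 and Apoc1 run upwards (r = 0.79 and 0.70), those of Apoa1 downwards (r = -0.68), and those of Apoa4 upwards apart from replicate 41 (r = 0.86 without it).

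Within groups, after subtracting each group's mean of log2 CPM, the 10 genes did not vary together. Of 45 pairs 25 had a positive Pearson's r over the 48 libraries, with a median of 0.09, a description of libraries that share preparation and depth. Over the pooled libraries, Apoc3 went with Tm6sf2 (r = 0.70) and with Apoc1 (0.57), and Apoa1 went against Apoc1 (-0.66) and Apoc3 (-0.60). The pooled values did not hold in every group. Apoa1 with Apoc3 was at -0.55 in Cort_ATGLi and -0.84 in Cort_CON livers, but at 0.5 in EtOH_ATGLi and 0.49 in EtOH_CON livers. Apoc3 with Tm6sf2 was at 0.45, 0.93, 0.52 and 0.08 in the same order. Apoc3 with Apoc1 stayed positive and Apoa1 with Apoc1 negative in each group. Apoa4 and Apoc3 had r = 0.35, and 0.70 without replicate 41. The length index ran with several of the genes: its r within groups was 0.61 for Apob, whose longest transcript has 13934 bases, and -0.68 for Apoc1, whose longest has 532, with -0.49 for Apoc3, 0.48 for Apoe and 0.47 for Apoa1 and values near 0 for Apoa4 and Tm6sf2, at 0 and -0.01. With the index as a covariate, an analysis added after seeing the data, the same 7 genes passed in both corticosterone comparisons; Apob was then -0.41 (adjusted p = 0.00483) in Cort_CON against EtOH_CON and -0.31 (adjusted p = 0.048) in Cort_ATGLi against EtOH_ATGLi livers.

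Among 8246 other genes of at least 5 CPM, those most like a member within groups differed from member to member. Nearest to Apob were Wapl, Huwe1 and Arhgef12 (r = 0.88, 0.87 and 0.86), with longest transcripts of 6351 to 14579 bases, and nearest to Apoc1 were Gchfr, Uqcrq and Ndufb9 (0.90, 0.87 and 0.86). Apoc3 was nearest to Ndufa13, Rnd2 and Akr1d1 (0.89, 0.87 and 0.83), and Tm6sf2 to Gm2a, Mat1a and Sdc1 (0.86, 0.85 and 0.82). Mttp had Stt3b (0.80) and Slc27a4 (0.79) among its nearest genes. Apoa4 was nearest to Ly6d, Gstm2 and Bco1 (0.79, 0.76 and 0.75), and Apoa1 to Lyn, Igfbp2 and Oxct1 (0.82, 0.81 and 0.77). For Apoe the first 2 were Pigr and Itih1 (0.87 and 0.84), and for Apoa5 Slc17a5 and Scarb2 (0.68 and 0.67). Pltp had the weakest likeness, with Cs, Ptk2 and Psmd5 at 0.62, 0.60 and 0.60.

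**Figure D4:**
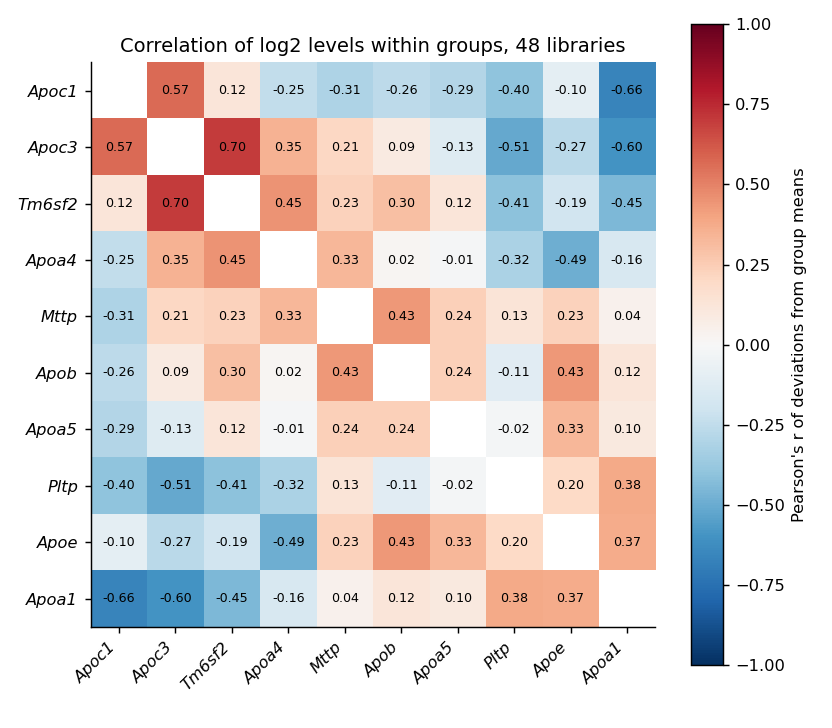
Pearson's r between the 10 genes of log2 CPM after subtracting group means, over 48 libraries, red for positive and blue for negative. Apoc3 with Tm6sf2 (0.70) and Apoa1 with Apoc1 (-0.66) are the extremes.

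The other genes of the pathway were counted by lists. Over all genes, 22.5% were higher and 21.7% lower in Cort_CON against EtOH_CON livers, and 19% and 17.7% in Cort_ATGLi against EtOH_ATGLi livers. In either direction 11.7% passed in Cort_ATGLi against Cort_CON livers and 3.13% in EtOH_ATGLi against EtOH_CON livers. Of 7 counted apolipoprotein genes outside the 10, 2 were higher, 1 was lower and 4 did not pass in Cort_CON against EtOH_CON livers (median log2 fold change -0.03, beside 0.01 over all genes), and 2, 0 and 5 did so in Cort_ATGLi against EtOH_ATGLi livers. Apoh, encoding a phospholipid-binding plasma protein, was higher in both, at 0.23 ± 0.092 (adjusted p = 0.0369) and 0.35 ± 0.092 (adjusted p = 0.00233). Apom, encoding the HDL protein that carries sphingosine-1-phosphate, was lower on the control diet alone, at -0.28 ± 0.074 (adjusted p = 0.00165), and was 0.16 ± 0.075 (adjusted p = 0.0822) on the atglistatin diet. That difference between diets itself passed, at 0.44 ± 0.11 (adjusted p = 0.0175).

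Of 18 other genes of VLDL assembly and secretion, 4 were higher, 8 were lower and 6 did not pass in Cort_CON against EtOH_CON livers (median -0.28), against 6, 3 and 9 in Cort_ATGLi against EtOH_ATGLi livers (median -0.06). Sort1, encoding the sorting receptor sortilin that binds apolipoprotein B, fell most, at -2.62 ± 0.17 (adjusted p = 4.08e-17) on the control diet and -1.94 ± 0.17 (adjusted p = 3.13e-13) on the atglistatin diet. Dgat2, which makes triglyceride, rose by 0.61 ± 0.08 (adjusted p = 1.61e-08) and 0.25 ± 0.079 (adjusted p = 0.0124), and Sar1b, of the coat that carries large particles out of the endoplasmic reticulum, by 0.63 ± 0.11 (adjusted p = 3.54e-06) and 0.59 ± 0.11 (adjusted p = 1.64e-05). Under corticosterone, atglistatin raised 5 and lowered 1 of the 18, with Dgat2 lower (-0.42 ± 0.072, adjusted p = 3.39e-05) and Smlr1, which takes part in VLDL secretion, higher (0.46 ± 0.082, adjusted p = 6.86e-05). Under vehicle none of the 18 passed.

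Of 12 lipases, their regulators and HDL-remodelling genes, 6 were higher and 2 lower in Cort_CON against EtOH_CON livers (median 0.16), and 2 were higher and 3 lower in Cort_ATGLi against EtOH_ATGLi livers (median 0.08). The lipase inhibitor Angptl4 rose on both diets, by 1.66 ± 0.25 (adjusted p = 4.08e-07) on the control diet and by 1.01 ± 0.25 (adjusted p = 0.000969) on the atglistatin diet. Lpl, encoding lipoprotein lipase, fell by 1.61 (adjusted p = 7.38e-06) and by 0.88 (adjusted p = 0.0131) on the log2 scale; macrophages express Lpl, and their markers were lower in the same comparisons.

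Of 8 receptor and clearance genes, 1 was higher and 2 were lower on the control diet (median -0.14), and 2 were higher and 3 were lower on the atglistatin diet (median -0.13). Over all genes 22.5% were higher and 21.7% lower on the control diet, and 19% and 17.7% on the atglistatin diet. Lsr, encoding a receptor for triglyceride-rich particles, rose by 0.73 ± 0.11 (adjusted p = 2.56e-07) and 0.55 ± 0.11 (adjusted p = 6.28e-05). Under corticosterone, Lsr was lower with atglistatin, at -0.41 ± 0.098 (adjusted p = 0.00296).

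Of 16 transcription factors known to act on these genes, 5 were higher and 4 lower on the control diet and 5 were higher and 5 lower on the atglistatin diet (medians -0.02 and -0.01). The shares over all genes were 22.5% higher and 21.7% lower on the control diet, and 19% and 17.7% on the atglistatin diet. Nr1h4, encoding the bile acid receptor FXR, was higher by 0.81 ± 0.071 (adjusted p = 1.83e-13) and 0.53 ± 0.07 (adjusted p = 2.67e-08). Hnf4a, a regulator of Apoc3 and Mttp, was higher by 0.65 ± 0.088 (adjusted p = 3.72e-08) and 0.34 ± 0.087 (adjusted p = 0.00151). Ppara was lower, at -0.82 ± 0.13 (adjusted p = 1.36e-06) and -0.51 ± 0.13 (adjusted p = 0.00194), and atglistatin raised it under corticosterone by 0.58 ± 0.12 (adjusted p = 0.000794). Nr3c1, encoding the glucocorticoid receptor, was lower, at -0.42 ± 0.068 (adjusted p = 1.42e-06) and -0.26 ± 0.068 (adjusted p = 0.00184).

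**Figure D5:**
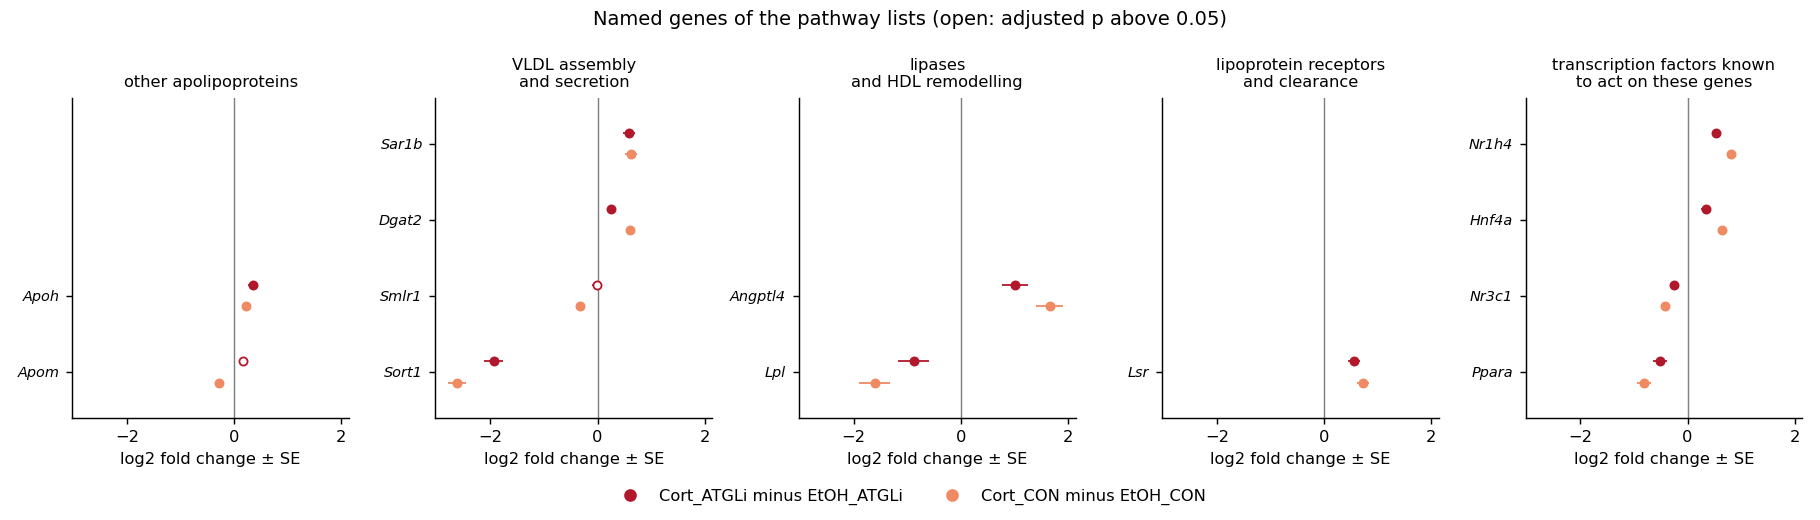
Log2 fold change with its standard error for the genes of the 5 pathway lists that are named in the text, in Cort_ATGLi minus EtOH_ATGLi (dark red) and Cort_CON minus EtOH_CON (orange); open points had an adjusted p above 0.05. Sort1 (-2.62 on the control diet) and Angptl4 (1.66) are the extremes of these genes in the control-diet comparison.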

How the data were processed

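The authors deposited raw counts of reads per gene for 48 liver libraries (Lexogen QuantSeq, 50 bp forward reads, per the labels' protocols) and a table of normalized signal values, which equal the deposited counts divided by 1 size factor per library. Build GRCm38, R 3.6 and DESeq2 1.24.0 come from the submitters' processing notes; for the aligner, the counter and its strand setting the sources used here give nothing. Of 14251 gene IDs, 12491 took a symbol from the deposited table, 1728 from GENCODE and 32 had none. The 10 genes and all gene lists were chosen with earlier results of these data known.

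The counts as deposited were fitted with edgeR 4.0.16 (quasi-likelihood, TMM, filterByExpr with a minimum count of 10, 1 mean per group, 48 libraries), with Benjamini-Hochberg adjustment over all 12688 genes tested. The standard error is the absolute log2 fold change divided by the root of F. CPM were TMM-adjusted, with 0.5 CPM added for log values in the likeness analysis. Of each pathway list, up to 4 genes with the smallest p per comparison could be named, besides the neighbours of the clusters. Some genes that this rule or the likeness ranking would name are counted in the lists but not reported here. Insulin relations were to be adjusted over the 10 genes; their p-values are given unadjusted, beside a slope adjusted over all genes. Alternatives were other size factors, all genes unfiltered, a fit of only the groups compared, DESeq2 1.42.0, limma 3.58.1 (voom with sample weights), leaving out libraries, and a replicate block. The fits were tested on simulated data. The p-values treat each mouse as independent, and nothing in the labels says whether mice were kept apart.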

Additional observations from a re-analysis of the deposited data

Results flagged for a closer look

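Of 40 groups of 5 to 10 livers examined (10 genes in EtOH_ATGLi, EtOH_CON, and the diabetic and nondiabetic Cort_CON livers), 7 held a library far from the others by Dixon's criterion, where chance marks about 1 in 20 groups if values are normally distributed. Apoa4 was 151 CPM in EtOH_CON replicate 10, with the next at 63.5. Apoc1 was 6486 CPM in EtOH_CON replicate 2, with the next at 5712. Apoc3 was 3893 CPM in EtOH_CON replicate 12, with the next at 3123, and Mttp was 148 CPM in the same library, with the next at 120. EtOH_ATGLi replicate 14 held the highest Apoa1, 12228 CPM, with the next at 8962, and the highest Tm6sf2, 76.1 CPM, with the next at 59.1. Pltp was 9.01 CPM in Cort_CON replicate 34, the highest of 9 diabetic livers, with the next at 6.21. Each of the 7 marked values was the highest of its group, and leaving any of these libraries out reversed the sign of no difference that had passed. In Cort_ATGLi against EtOH_CON livers, Apoa5 missed the threshold without EtOH_CON replicate 2 (adjusted p = 0.0584). Apoa1 missed it there without EtOH_CON replicate 12 (adjusted p = 0.0749). No member's corticosterone effect differed between the diets by the test of the difference.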

How the results depend on the processing

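Of 2420 member values recomputed under other settings, 2384 kept their side of the threshold, and none reversed among called values. A change of sign where neither fit passed was counted as kept, and there were 83 such changes. Under other size factors, all genes unfiltered, a fit of only the groups compared and DESeq2, the 4 higher and 3 lower members of both corticosterone comparisons were unchanged in number; limma's voom fit added Apoa1 in Cort_CON against EtOH_CON (-0.57, adjusted p = 0.00842). Leaving out each library in turn gave 7 to 8 members in Cort_CON against EtOH_CON (4 higher, 3 to 4 lower), 7 in Cort_ATGLi against EtOH_ATGLi, 0 in EtOH_ATGLi against EtOH_CON, 1 to 2 in Cort_ATGLi against Cort_CON (0 to 1 higher, 1 lower), 8 to 9 in Cort_ATGLi against EtOH_CON and 0 for the interaction and for diabetes. Without the libraries high in Cpa1, 1 member (Pltp, lower) passed in EtOH_ATGLi against EtOH_CON, and Apoa1 did not pass in Cort_ATGLi against EtOH_CON (-0.41, adjusted p = 0.139). Insulin relations with an unadjusted permutation p of at most 0.05 for Pearson's r numbered 4 with all mice, 2 without the 2 farthest mice and 5 without replicate 41. In edgeR's slope on insulin 4 members had an unadjusted p under 0.05, and 0 passed after adjustment over all genes.

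The labels do not say whether the numbers in the titles pair mice. Same-numbered libraries had correlations of deviations of -0.117 to 0.036, which cannot show whether such mice shared a cage or a litter. A replicate block on the same-numbered pairs alone (2 pairs, replicates 13 and 14) left 1 member in Cort_ATGLi against EtOH_ATGLi (0 higher, 1 lower), and those 4 libraries without the block left 2 (1 higher, 1 lower), with far fewer libraries in both fits. On 4 pairs, EtOH_ATGLi against EtOH_CON gave 0.

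Counts of all genes moved by over 1.5 times in some fits. In Cort_CON against EtOH_CON they were 5606, and 3614 without diabetic mice. In Cort_ATGLi against Cort_CON they were 1479, and 609 without diabetic mice. In EtOH_ATGLi against EtOH_CON they were 397, against 899 with voom, 656 with the length index and 207 without the Cpa1 libraries; for the interaction they were 181, against 359 with voom, 76 without diabetic mice and 64 without the Cpa1 libraries. Depth limits Pltp most.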
